A study of Mus musculus with 9 samples.

Results

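The Hox genes of the mouse encode homeodomain transcription factors and lie in 4 clusters, Hoxa on chromosome 6, Hoxb on chromosome 11, Hoxc on chromosome 15 and Hoxd on chromosome 2. Members were chosen by name and not by their values: every probe whose platform symbol is Hoxa, Hoxb, Hoxc or Hoxd followed by a position number was taken. This gave 40 of the 26423 probes, or 38 of the 17742 named genes. Hoxb3 and Hoxc8 have 2 probes each, and every other gene has 1. There were 10 probes in Hoxa, 11 in Hoxb, 10 in Hoxc and 9 in Hoxd.

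Colon RNA of female BALB/c mice was hybridised to Cy5 arrays in 3 groups of 3. Vanillin mice were given azoxymethane (AOM, a colon carcinogen) at 12.5 mg/kg intraperitoneally on day 1 and, from day 8, 2.5% dextran sodium sulfate (DSS, an irritant of the colon epithelium) in the drinking water for 5 days, then plain water for 16 days. They had 3 additional DSS cycles and took 100 mg/kg vanillin by mouth for 91 days. Sham mice had the same AOM/DSS course without vanillin, and Mock mice were untreated. The age of the mice is not given in the sources used here, nor whether the 3 arrays of a group came from separate mice, so p-values measure only the spread between arrays, which may be technical. Sham minus Mock asks what AOM/DSS treated colon expressed relative to untreated colon. Vanillin minus Sham asks how colon with vanillin differed from colon without it under AOM/DSS. Vanillin minus Mock asks how far vanillin-treated colon differed from untreated colon.

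In the embryo, Hox genes are switched on in the order in which they lie along a cluster, and the set that a cell expresses marks its place along the head-to-tail axis. Genes at positions 1 to 3 are called anterior here, those at 4 to 8 central and those at 9 to 13 posterior. In the adult, fibroblasts, smooth muscle, fat and skin keep position-specific Hox patterns, and the hindgut epithelium and its mesenchyme are known for posterior genes such as Hoxa13, Hoxd13 and Hoxb13. Hox proteins bind DNA together with the TALE homeodomain cofactors of the Pbx and Meis families. Caudal-type factors (Cdx) and retinoic acid act on Hox genes as activators, and Polycomb complexes keep them silent.

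Marker genes of the colon lining and of other tissues differed between the groups. Arrays of 1 group correlated at 0.995 to 0.998 across all probes, while r was 0.964 to 0.967 for Vanillin with Sham, 0.926 to 0.929 for Sham with Mock and 0.969 to 0.973 for Vanillin with Mock. Of 12 colon epithelium markers, 10 had a mean intensity of at least 50 in Vanillin, 11 in Sham and 11 in Mock (Krt8 was under 50 in all groups and Krt18 in Vanillin), and single markers moved both ways in Sham minus Mock, from -2.98 for Slc26a3 to 3.13 for Cdx2. The summed intensity of 14 squamous epithelium markers was 278556 to 337378 in Vanillin, 27137 to 28242 in Sham and 536906 to 539668 in Mock. Krt14 of this list read 64969, 63608 and 11506 on the Vanillin arrays. Readings of Krt10, Krt13 and Lor of this list, and of Lgals4 and Epcam of the colon list, lay close together near 65508 on several arrays. So did those of the smooth muscle marker Acta2 in Mock and of the fibroblast marker Dcn in Vanillin. Differences between such bright readings may be hidden, in the sums and in the calls. The summed markers of hair follicle and skeletal muscle, which are not tissues of the colon wall, were also lowest in Sham, as given below. In bulk RNA, a difference in the tissue sampled, fewer cells of a type and less RNA per cell cannot be told apart. This holds for every comparison of the groups below.

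Changes are differences in log2(intensity + 16) with their standard error (SE), and calls were made with limma where the adjusted p was below 0.05, with Benjamini-Hochberg adjustment over all 26423 probes. A change of 1 on this scale is a doubling of intensity plus pseudocount, and the pseudocount understates the change of dim probes. Hoxa6, Hoxc12 and Hoxd1 had a mean intensity under 50 in every group, so the size of their changes is uncertain.

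In Sham minus Mock the clusters moved in different directions. Most Hoxc genes fell and most Hoxa genes rose, while Hoxb held both one of the 2 largest decreases of all members (Hoxb2, beside Hoxc13) and the largest increase (Hoxb9). Of the 40 Hox probes 32 were called, 13 higher and 19 lower, where 59.7% of all probes were called, 36.5% higher and 23.2% lower. By at least 1 in size, 4 probes rose and 9 fell, against backgrounds of 5.9% and 7.57%. Hoxc had 9 of 10 probes lower, none higher and 1 not called (median -1.62). Hoxa had 9 of 10 higher, none lower and 1 not called (median 0.62). Hoxb had 1 higher, 7 lower and 3 not called (median -0.38), and Hoxd had 3 higher, 3 lower and 3 not called (median -0.05). The median change over all 26423 probes was 0.10.

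In Vanillin minus Sham, 24 of the 40 Hox probes were called, 9 higher and 15 lower. The largest increases were those of Hoxc13 and Hoxc9, and the posterior genes of the other 3 clusters were lower or not called. Over all probes 47.9% were called, 15.7% higher and 32.2% lower, so the share of Hox probes that fell (37.5%) was near the background. Hoxc had 6 higher, 1 lower and 3 not called of 10 (median 0.55), and Hoxa had none higher, 6 lower and 4 not called (median -0.29). Hoxb had 2 higher, 5 lower and 4 not called (median -0.09), and Hoxd had 1 higher, 3 lower and 5 not called (median 0.02). By at least 1 in size 4 Hox probes rose, against 3.8% of all probes, and none fell, against 0.67%. The median over all probes was -0.09.

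Vanillin minus Mock gave 31 called Hox probes, 11 higher and 20 lower, with 50.7% of all probes called, 24.5% higher and 26.2% lower. Hoxa had 7 higher, 1 lower and 2 not called (median 0.36), and Hoxc had 1 higher, 7 lower and 2 not called (median -0.54). Hoxb had 1 higher, 7 lower and 3 not called (median -0.41), and Hoxd had 2 higher, 5 lower and 2 not called (median -0.16). By at least 1 in size 1 Hox probe rose and 5 fell, against 3.68% and 4.01% of all probes. The 3 comparisons share arrays in pairs, so their values are given side by side and not counted as separate evidence.

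**Figure D1:**
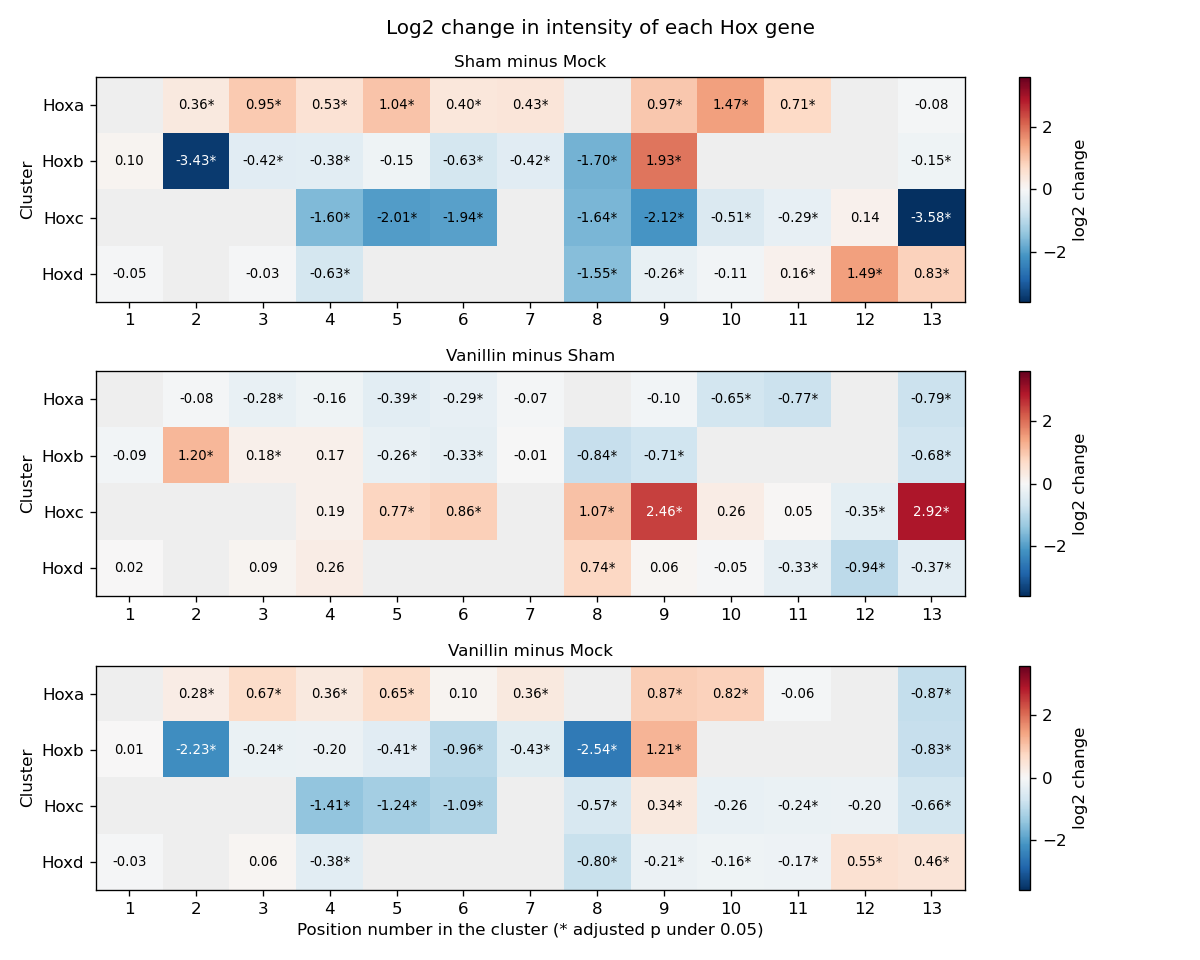
Log2 change of each Hox gene (brightest probe) by cluster (rows) and position number (columns), in a panel for each of the 3 comparisons. Red is higher and blue lower in the group named first, an asterisk marks an adjusted p under 0.05 and empty cells have no value here. In Sham minus Mock the Hoxc row is mostly blue down to -3.58 and the Hoxa row mostly red up to 1.47.

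Most Hoxc genes, at central and at posterior positions, were lower in Sham than in Mock. Hoxc13, which is required for hair and nail formation and acts on hair keratin genes, had intensities of 663, 634 and 621 in Vanillin, 72.1, 50.5 and 94.2 in Sham and 1017, 1055 and 980.2 in Mock. All Sham arrays lay far below the other groups, and the Vanillin arrays lay below Mock without overlap. The log2 change was -3.58 (SE 0.15, adjusted p = 5.2e-08) in Sham minus Mock, 2.92 (SE 0.15, adjusted p = 6.4e-07) in Vanillin minus Sham and -0.66 (SE 0.15, adjusted p = 0.0057) in Vanillin minus Mock.

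Hoxc9, a posterior gene that patterns the thoracic region, had intensities of 214, 195 and 202 in Vanillin, 17.6, 25.7 and 29.1 in Sham and 149.6, 171 and 152 in Mock. Every Vanillin array lay above every Mock array, and the Sham arrays were far below both. Its log2 change was -2.12 (SE 0.1, adjusted p = 1.6e-07) in Sham minus Mock and 2.46 (SE 0.1, adjusted p = 1.5e-07) in Vanillin minus Sham. In Vanillin minus Mock it was 0.34 (SE 0.1, adjusted p = 0.023), and that call is not firm: the adjusted p was 0.092 with a pseudocount of 1, 0.067 and 0.07 without Mock replicates 1 and 3, and 0.065 and 0.055 without Vanillin replicates 1 and 3. The Sham values are dim, so the sizes move with the pseudocount, and with 1 and 64 in place of 16 the change in Vanillin minus Sham was 3.05 and 1.60.

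The central Hoxc genes at positions 4, 5, 6 and 8 pattern the neck and thorax of the embryo. Hoxc8 had intensities of 468, 468 and 505 in Vanillin, 207, 233 and 223 in Sham and 732, 717 and 715 in Mock, and the groups did not overlap. It fell by 1.64 (SE 0.055, adjusted p = 1.1e-08) in Sham minus Mock and rose by 1.07 (SE 0.055, adjusted p = 6.6e-07) in Vanillin minus Sham. Its second probe gave smaller changes in the same directions, -0.85 and 0.33. Vanillin minus Mock was -0.57 on the brighter probe and -0.52 on the other, and both were called.

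Hoxc6 read 355, 269 and 302 in Vanillin, 137, 172 and 180.1 in Sham and 696, 668 and 646 in Mock. Its groups were separate, in the order Mock, Vanillin, Sham from high to low, with a change of -1.94 (SE 0.11, adjusted p = 5.4e-07) in Sham minus Mock and 0.86 (SE 0.11, adjusted p = 0.0003) in Vanillin minus Sham. Hoxc5 was dim, with 25, 24.1 and 21.3 in Vanillin, 9.22, 5.67 and 6.67 in Sham and 71.4, 82.7 and 77 in Mock. It fell by 2.01 (SE 0.073, adjusted p = 1.9e-08) in Sham minus Mock and rose by 0.77 (SE 0.073, adjusted p = 4e-05) in Vanillin minus Sham, and its sizes depend most on the pseudocount (-3.27 with 1 and -0.99 with 64 for the decrease, and 1.60 with 1 and 0.30 with 64 for the increase).

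Hoxc4 differed from its neighbours in the vanillin comparison. Intensities were 342, 266 and 309 in Vanillin, 217, 287 and 297 in Sham and 879, 814 and 810.2 in Mock, and the Vanillin and Sham arrays overlapped. It fell by 1.60 (SE 0.12, adjusted p = 3.7e-06) in Sham minus Mock. Vanillin minus Sham was 0.19 (SE 0.12, adjusted p = 0.24), not called, with a 95% interval of -0.09 to 0.47. In Vanillin minus Mock it fell by 1.41 (SE 0.12, adjusted p = 1.4e-05).

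Hoxc10, Hoxc11 and Hoxc12, between Hoxc9 and Hoxc13 on the chromosome, changed less than either of those neighbours in Sham minus Mock. They are named after their values were seen. Hoxc10, a gene of the lumbosacral region, averaged 271 ± 43.4 in Vanillin, 222 ± 17.7 in Sham and 323 ± 8.3 in Mock (SD, n = 3 each) and fell by 0.51 (SE 0.11, adjusted p = 0.0027) in Sham minus Mock. Hoxc11 averaged 133 ± 8.81 in Vanillin, 128 ± 4.61 in Sham and 160.1 ± 4.4 in Mock (SD, n = 3 each) and fell by 0.29 (SE 0.056, adjusted p = 0.0015) in the same comparison. Neither was called in Vanillin minus Sham (0.26 and 0.05), though Hoxc10 reached an adjusted p of 0.0042 without Vanillin replicate 3 and 0.023 with array weights. The dim Hoxc12 was not called in Sham minus Mock (0.14) and fell by 0.35 (SE 0.084, adjusted p = 0.0084) in Vanillin minus Sham.

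**Figure D2:**
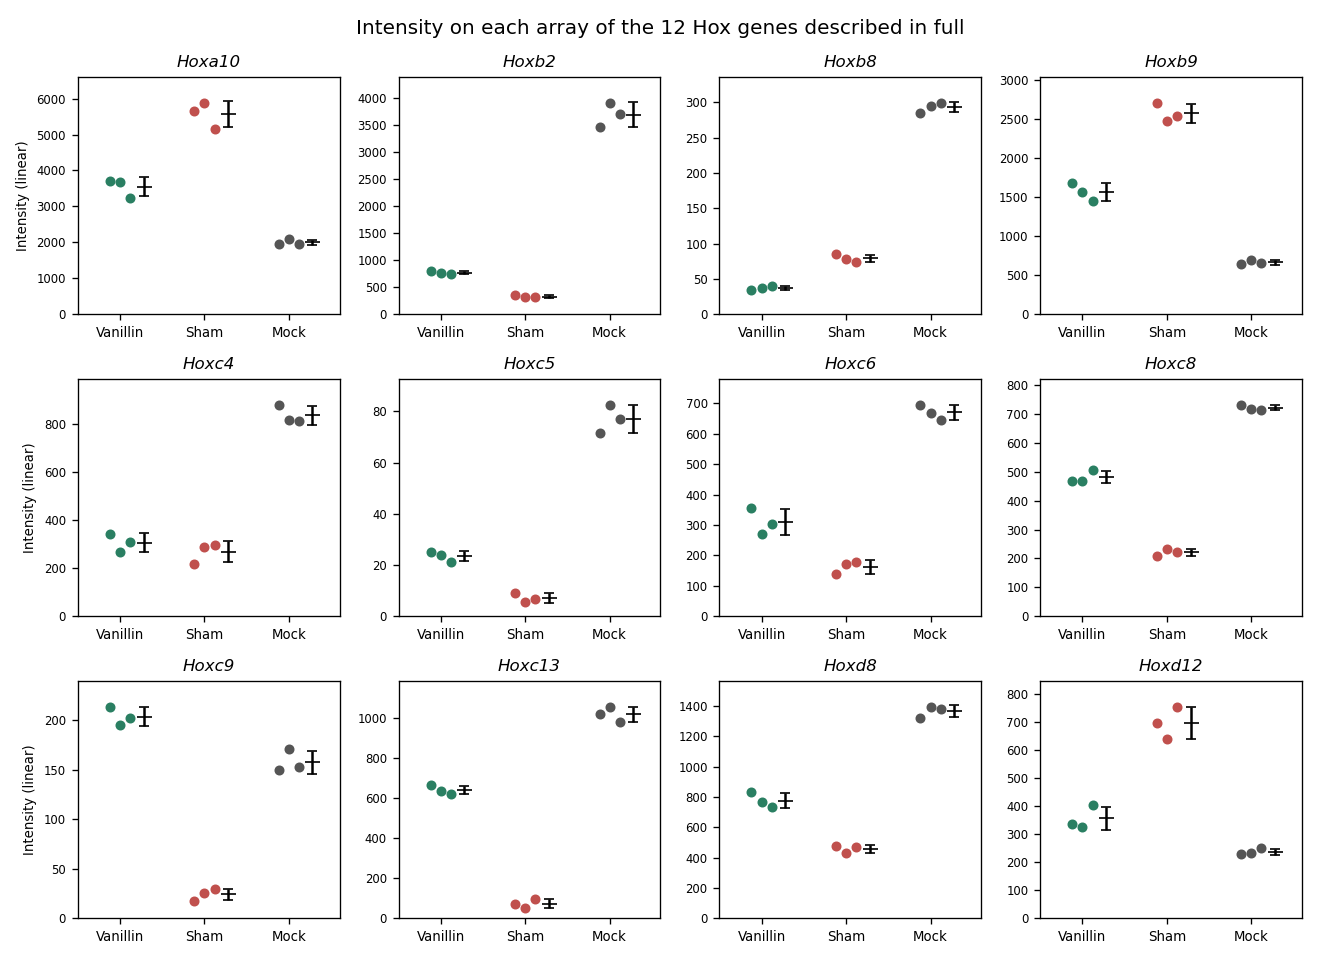
Intensity (linear scale, from 0) on each of the 9 arrays for the 12 Hox genes described in full, with Vanillin, Sham and Mock from left to right. Points are arrays, and the bar beside them is the mean with the SD (n = 3). The means of the 6 Hoxc genes are lowest in Sham, those of Hoxa10, Hoxb9 and Hoxd12 are highest in Sham, and Hoxb8 is lowest in Vanillin.

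Marker genes of skin, fat and muscle moved with the Hoxc genes. All 14 squamous epithelium markers fell in Sham minus Mock (median -6.34), and 13 of 14 rose in Vanillin minus Sham (median 5.05). Of 12 hair follicle markers, 11 fell in Sham minus Mock (median -4.19) and 11 rose in Vanillin minus Sham (median 3.35), and their summed intensity was 55861 to 57858 in Vanillin, 3827 to 4112 in Sham and 106439 to 112445 in Mock. Krt25 and Msx2 had means under 50 in Sham. The summed hair follicle markers thus had the same order of groups as Hoxc13, though in Vanillin minus Mock 9 fell and 3 were not called.

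Of 10 adipocyte markers, 9 fell and 1 rose in Sham minus Mock (median -4.27), and 8 rose and 2 fell in Vanillin minus Sham (median 3.76). Their sum was 93518 to 96990 in Vanillin, 3994 to 4111 in Sham and 105271 to 107277 in Mock, with Pparg under 50 in every group and Lep in Sham. The 6 measured skeletal muscle markers fell in Sham minus Mock (median -5.88), and 5 rose and 1 fell in Vanillin minus Sham (median 3.95), with sums of 43512 to 46621 in Vanillin, 2128 to 2284 in Sham and 113704 to 118860 in Mock. By comparison, the 10 Hoxc probes summed to 2522 to 2749 in Vanillin, 1199 to 1386 in Sham and 4234 to 4356 in Mock. The part of these tissues in the Hoxc result was not tested.

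Markers of the other layers of the gut wall were set beside the Hox genes in the same way. The 6 measured smooth muscle markers all fell in Sham minus Mock (median -2.02), and 4 rose and 2 were not called in Vanillin minus Sham (median 0.27). Their sum was 46551 to 49839.8 in Vanillin, 40406 to 43125 in Sham and 93504 to 94877 in Mock, the order of groups of the Hoxc sum. Most of that sum was Acta2, with means of 40824 in Vanillin, 36624 in Sham and 65427 in Mock. The 2 not called in Vanillin minus Sham were Cnn1 and Lmod1, and Lmod1 averaged 114 in Vanillin and 126 in Sham. The part of smooth muscle in the Hoxc result was not tested either. Of 7 fibroblast markers 3 rose and 3 fell in Sham minus Mock (median -0.04), and 6 rose and 1 was not called in Vanillin minus Sham (median 0.65). Of 12 colon epithelium markers 5 rose and 3 fell in Sham minus Mock (median 0.15), and 6 fell and none rose in Vanillin minus Sham (median -0.19). Of 6 immune markers, 2 rose and 1 fell in Sham minus Mock (median 0.11), as in Vanillin minus Sham (median 0.22).

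**Figure D3:**
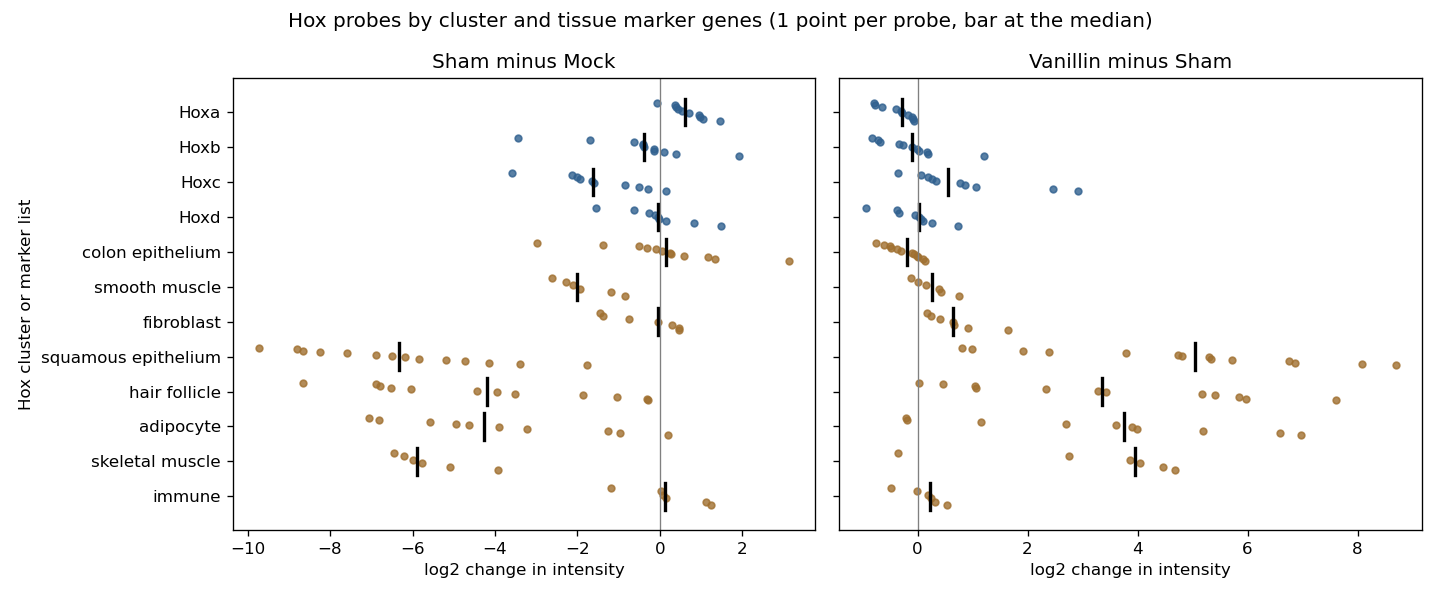
Log2 change in intensity of each Hox probe by cluster (blue) and of tissue marker genes by list (brown), in Sham minus Mock (left) and Vanillin minus Sham (right). Each point is a probe and the bar is the median. The Hoxc median is -1.62 on the left and 0.55 on the right. Squamous epithelium, hair follicle, adipocyte and skeletal muscle markers have medians on the same side of 0 as Hoxc in both panels, between -6.34 and -4.19 on the left. So do smooth muscle markers, at -2.02 and 0.27, and fibroblast markers, at -0.04 and 0.65.

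In the Hoxb cluster the genes at positions 2 and 8 fell and the gene at position 9 rose. Hoxb2, which patterns the hindbrain, had intensities of 800.1, 764 and 755 in Vanillin, 352, 313 and 318 in Sham and 3458, 3916 and 3712 in Mock. The 3 groups were far apart, with Sham lowest. It fell by 3.43 (SE 0.065, adjusted p = 2e-10) in Sham minus Mock, rose by 1.20 (SE 0.065, adjusted p = 9.2e-07) in Vanillin minus Sham, and fell by 2.23 in Vanillin minus Mock. The summed squamous epithelium, hair follicle, adipocyte, skeletal muscle and smooth muscle markers had this order of groups too, and their part in the Hoxb2 change was not tested. Its neighbour Hoxb1 was not called in any comparison, with changes of 0.10 in Sham minus Mock (95% interval -0.03 to 0.23), -0.09 in Vanillin minus Sham and 0.01 in Vanillin minus Mock.

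Hoxb8, known from myeloid cells and from the patterning of the trunk, fell in all 3 comparisons. Its intensities were 34.4, 37.1 and 40.3 in Vanillin, 84.9, 78.2 and 74.2 in Sham and 285, 295 and 299 in Mock. Unlike the 6 Hoxc genes given array by array, it was lowest in Vanillin, and no groups overlapped. It fell by 1.70 (SE 0.061, adjusted p = 1.6e-08) in Sham minus Mock, by 0.84 (SE 0.061, adjusted p = 6.9e-06) in Vanillin minus Sham and by 2.54 (SE 0.061, adjusted p = 4.2e-09) in Vanillin minus Mock. The Vanillin values are dim, and with 1 and 64 in place of 16 the last change was -2.94 and -1.82.

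At position 8 every probe fell in Sham minus Mock, 4 of 4 (Hoxb8, both probes of Hoxc8, and Hoxd8), where 23.2% of all probes fell. Among the positions with over 2 probes no other had every probe lower, and position 4 had 3 of 4 lower. Position 8 was singled out after its values were seen. Hoxd8 read 831, 767 and 731 in Vanillin, 476, 429 and 468 in Sham and 1322, 1395 and 1382 in Mock. It fell by 1.55 (SE 0.063, adjusted p = 4.1e-08) in Sham minus Mock and rose by 0.74 (SE 0.063, adjusted p = 1.9e-05) in Vanillin minus Sham, and its groups did not overlap. The position-8 genes therefore parted in Vanillin minus Sham, where Hoxb8 was lower and Hoxc8 and Hoxd8 were higher.

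The region before the start of Hoxb8 is shown since Hoxb8 was the one gene of position 8 that was lower in Vanillin than in Sham and lower in both than in Mock, and that of Hoxc4 as a fallen gene whose Vanillin and Sham arrays overlapped. Hoxd12, a riser described with its cluster, stands beside them. Each run is the 250 bases before the RefSeq start (GRCm38.p6), 5′ to 3′ on the strand of the gene, at chr11:96281655-96281904, plus strand, for Hoxb8, chr15:103034145-103034394, plus strand, for Hoxc4 and chr2:74674763-74675012, plus strand, for Hoxd12. Capitals mark matches on either strand to TTTATNG, a core bound by caudal-type and posterior Hox proteins.
Hoxb8: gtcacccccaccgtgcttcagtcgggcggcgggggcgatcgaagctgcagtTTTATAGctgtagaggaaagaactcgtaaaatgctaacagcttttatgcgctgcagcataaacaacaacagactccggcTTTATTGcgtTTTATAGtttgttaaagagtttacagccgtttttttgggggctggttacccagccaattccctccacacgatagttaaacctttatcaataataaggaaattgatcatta
Hoxc4: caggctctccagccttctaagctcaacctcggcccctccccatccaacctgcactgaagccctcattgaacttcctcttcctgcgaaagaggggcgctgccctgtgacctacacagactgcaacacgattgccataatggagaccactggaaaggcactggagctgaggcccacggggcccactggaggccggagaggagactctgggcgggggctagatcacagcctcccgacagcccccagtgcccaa
Hoxd12: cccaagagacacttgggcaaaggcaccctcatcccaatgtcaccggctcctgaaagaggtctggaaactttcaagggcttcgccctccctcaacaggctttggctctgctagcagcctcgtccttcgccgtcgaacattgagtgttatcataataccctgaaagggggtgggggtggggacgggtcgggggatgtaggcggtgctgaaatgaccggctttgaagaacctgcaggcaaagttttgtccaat

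The Hoxb8 window holds 3 matches, starting 199, 120 and 110 bases before the start, and the other 2 windows hold none. RefSeq windows were at hand for 22 of the 38 genes (24 windows, since Hoxa10 and Hoxd11 have 2 each). Of these 24, 2 held the motif (8.33%, Hoxb8 and Hoxd4), against 9.81% of 32851 windows of the same length over all genes. The Meis core TGACAG, searched on both strands, was found in 2 of the 24 (8.33%, Hoxa2 and Hoxa3), against 15.9% of all windows. Both motifs were chosen after the values of Cdx2 and Meis1 were known, and a match is a description of the letters only.

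Hoxb9, a posterior gene that patterns the ribs, was the member with the largest increase in Sham minus Mock. It had intensities of 1676, 1566 and 1445 in Vanillin, 2705, 2471 and 2538 in Sham and 643, 694 and 653 in Mock. Sham was highest and Mock lowest, with Vanillin between and no overlap. It rose by 1.93 (SE 0.067, adjusted p = 1.3e-08) in Sham minus Mock, fell by 0.71 (SE 0.067, adjusted p = 3.4e-05) in Vanillin minus Sham and rose by 1.21 (SE 0.067, adjusted p = 6.5e-07) in Vanillin minus Mock. Next to it on the chromosome, Hoxb8 went the other way relative to Mock in both AOM/DSS groups.

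The Hoxb genes at positions 1 and 3 to 7 changed by less than 1 in every comparison. Their brightest probes ranged from -0.63 (Hoxb6) to 0.10 (Hoxb1) in Sham minus Mock, and Hoxb3, Hoxb4, Hoxb6 and Hoxb7 were called lower there. Hoxb6 averaged 430.4 ± 7.53 in Vanillin, 545 ± 30.8 in Sham and 853 ± 6.72 in Mock (SD, n = 3 each), and fell in all 3 comparisons. The 2 probes of Hoxb3 disagreed. The brighter fell by 0.42 (SE 0.046, adjusted p = 4.5e-05) in Sham minus Mock, whereas the other gave 0.39 (SE 0.22, adjusted p = 0.16), with 1 Mock array at 147 and the other 2 at 301 and 290.0.

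In Hoxa, 9 of 10 genes rose in Sham minus Mock, and Hoxa10, which patterns the lumbar region and the uterus, rose most. Its intensities were 3712, 3682 and 3241 in Vanillin, 5657, 5887 and 5163 in Sham and 1964, 2083 and 1953 in Mock, with Sham highest, Mock lowest and no overlap. It rose by 1.47 (SE 0.072, adjusted p = 1.5e-07) in Sham minus Mock, fell by 0.65 (SE 0.072, adjusted p = 0.0001) in Vanillin minus Sham and was higher by 0.82 (SE 0.072, adjusted p = 1.5e-05) in Vanillin minus Mock. The gene just outside the 12 largest was Hoxa5, which acts in the development of lung and gut, with averages of 1485 ± 21.5 in Vanillin, 1949 ± 156 in Sham and 941 ± 68.2 in Mock (SD, n = 3 each) and changes of 1.04, -0.39 and 0.65 in the same order of comparisons, all called.

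The rest of the cluster followed with smaller increases in Sham minus Mock. Hoxa9, known from blood progenitors and from myeloid leukaemia, rose by 0.97 (SE 0.062, adjusted p = 9.7e-07), and Hoxa3, which the thymus and parathyroid need, by 0.95 (SE 0.057, adjusted p = 6.1e-07). Hoxa2, Hoxa4, Hoxa6 and Hoxa7 rose by 0.36, 0.53, 0.40 and 0.43. In Vanillin minus Sham, Hoxa3 and Hoxa6 fell (by 0.28 and 0.29), while Hoxa2 (-0.08), Hoxa4 (-0.16), Hoxa7 (-0.07) and Hoxa9 (-0.10) were not called. The Hoxa6 call had an adjusted p of 0.063 to 0.085 without Sham replicate 1 or Vanillin replicate 2 or 3, and Hoxa4 reached 0.031 without Sham replicate 2. All of them except Hoxa6 stayed higher in Vanillin minus Mock, by 0.28 to 0.87.

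In Hoxd, Hoxd12 and Hoxd13 at the posterior end rose in Sham minus Mock. Hoxd12, a gene of limb and genital development, had intensities of 337, 326 and 405 in Vanillin, 695, 640.4 and 755 in Sham and 230.4, 231 and 251 in Mock, with no overlap between groups. It rose by 1.49 (SE 0.09, adjusted p = 6.7e-07) in Sham minus Mock, fell by 0.94 (SE 0.09, adjusted p = 4.1e-05) in Vanillin minus Sham and was higher by 0.55 (SE 0.09, adjusted p = 0.00084) in Vanillin minus Mock. At the anterior end, Hoxd1 and Hoxd3 were not called in any comparison, with sizes up to 0.09. Hoxd4 and Hoxd9 fell in Sham minus Mock (by 0.63 and 0.26), and Hoxd10 (-0.11, adjusted p = 0.08) was not called there, but was at 0.026 with array weights, 0.047 with an intensity trend and 0.046 with a pseudocount of 64.

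The genes at positions 11 to 13, which mark the posterior end of the body, fell in Vanillin minus Sham in Hoxa, Hoxb and Hoxd. These genes are named after their values were seen, other than Hoxc13 and Hoxd12. Hoxb13, known from prostate and the distal hindgut, had intensities of 11810.2, 11667 and 11392 in Vanillin, 18502, 19066 and 18165 in Sham and 20138, 21287 and 20597 in Mock. It fell by 0.68 (SE 0.045, adjusted p = 4.1e-06) in Vanillin minus Sham and by 0.83 (SE 0.045, adjusted p = 6.5e-07) in Vanillin minus Mock, with every Vanillin array below every other array. In Sham minus Mock it was -0.15 (SE 0.045, adjusted p = 0.016), a call lost at an adjusted p of 0.061 without Mock replicate 2.

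Hoxa13, which is required for the hindgut and the digits, had intensities of 169, 143 and 146 in Vanillin, 284, 249 and 294 in Sham and 280.4, 289 and 306 in Mock. It too was lowest in Vanillin, and fell by 0.79 (SE 0.08, adjusted p = 6.2e-05) in Vanillin minus Sham and by 0.87 (SE 0.08, adjusted p = 2.1e-05) in Vanillin minus Mock, while Sham minus Mock was not called (-0.08, 95% interval -0.26 to 0.10). Hoxd13, its counterpart in the other cluster of limb genes, had intensities of 9004, 8398 and 7588 in Vanillin, 10658, 11035 and 10509 in Sham and 5996, 6216 and 5843 in Mock. Here Sham was highest, with 0.83 (SE 0.066, adjusted p = 4.5e-06) in Sham minus Mock and -0.37 (SE 0.066, adjusted p = 0.0017) in Vanillin minus Sham, and Vanillin stayed above Mock by 0.46 (SE 0.066, adjusted p = 0.00034). The genes of position 13 therefore did not share 1 pattern, and Hoxc13 moved against the other 3 in Vanillin minus Sham.

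Hoxa11, needed for the uterus, kidney and forelimb, had intensities of 598, 594 and 594 in Vanillin, 1032, 1049 and 1006 in Sham and 635, 632 and 603 in Mock. It rose by 0.71 (SE 0.044, adjusted p = 7.6e-07) in Sham minus Mock and fell by 0.77 (SE 0.044, adjusted p = 1.2e-06) in Vanillin minus Sham. Vanillin minus Mock was -0.06 (SE 0.044, adjusted p = 0.26), not called, with a 95% interval of -0.16 to 0.04. Hoxd11 moved less, with 0.16 in Sham minus Mock, -0.33 in Vanillin minus Sham and -0.17 in Vanillin minus Mock. The first of these calls was lost without Mock replicate 2 or 3 or Sham replicate 1 (adjusted p from 0.059 to 0.11), and the last had an adjusted p from 0.05 to 0.076 without any 1 of the Vanillin arrays or of Mock replicates 1 and 2.

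**Figure D4:**
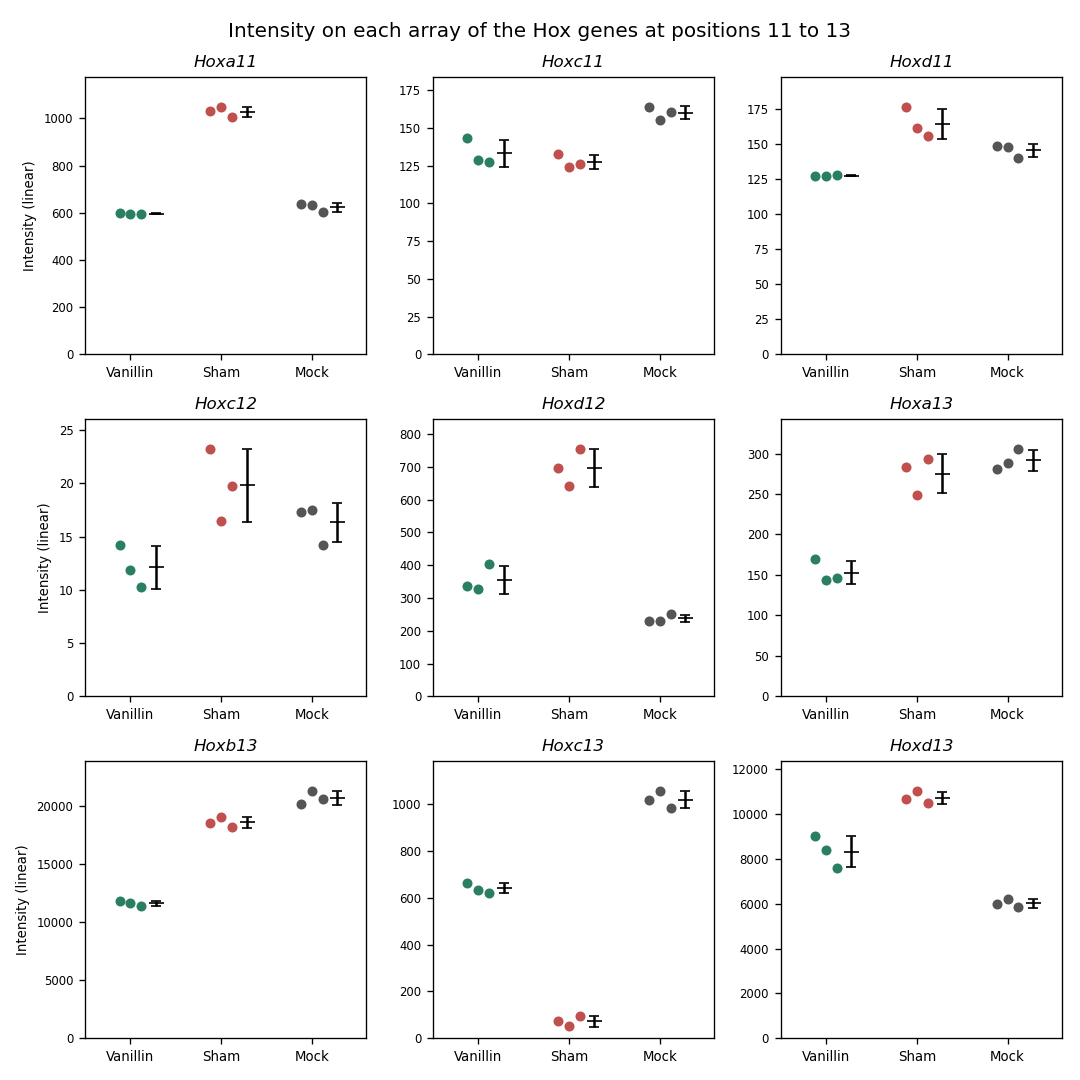
Intensity (linear scale, from 0) on each array of the Hox genes at positions 11 to 13, with Vanillin, Sham and Mock from left to right, points for arrays and the mean with the SD (n = 3) beside them. Hoxa13 and Hoxb13 are lowest in Vanillin (143 to 169 and 11392 to 11810), and Hoxc13 is lowest in Sham.

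By position class, 11 of 16 central probes fell in Sham minus Mock, 4 rose and 1 was not called (median -0.63), where 23.2% of all probes fell and 36.5% rose. Of 16 posterior probes 6 fell, 7 rose and 3 were not called (median 0.03), and of 8 anterior probes 2 fell, 2 rose and 4 were not called (median 0.03). In Vanillin minus Sham, 9 posterior probes fell, 2 rose and 5 were not called (median -0.34), where 32.2% of all probes fell and 15.7% rose, while the central ones split into 5 higher, 5 lower and 6 not called (median 0.08). The anterior class had 2 higher, 1 lower and 5 not called there (median 0.03). Position number alone did not set the direction, since at position 9 the changes in Sham minus Mock were 0.97 for Hoxa9, 1.93 for Hoxb9, -2.12 for Hoxc9 and -0.26 for Hoxd9, all called.

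Arrays of the compared groups did not overlap for 33 of the 40 Hox probes in Sham minus Mock, 27 in Vanillin minus Sham and 35 in Vanillin minus Mock. Over all probes this held for 67.1%, 56.3% and 60.4%.

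Noncoding transcripts of the Hox loci were measured for 3 of 10 listed names, and all 3 rose in Sham minus Mock and fell in Vanillin minus Sham. Over all probes 36.5% were higher in Sham minus Mock and 32.2% lower in Vanillin minus Sham. Nothing particular to these transcripts is read from a count of 3. Hoxaas3, an antisense transcript of the Hoxa locus, had intensities of 1329, 1204 and 1169 in Vanillin, 2048, 1762 and 2117 in Sham and 577, 592 and 611 in Mock. It rose by 1.71 (SE 0.079, adjusted p = 9.8e-08) in Sham minus Mock and fell by 0.67 (SE 0.079, adjusted p = 0.00014) in Vanillin minus Sham. Hoxa4, Hoxa5, Hoxa6 and Hoxa7 rose by 0.53, 1.04, 0.40 and 0.43 in Sham minus Mock. Hoxa11os, transcribed opposite to Hoxa11, was 0.48 (SE 0.13, adjusted p = 0.012) in Sham minus Mock and -0.56 (SE 0.13, adjusted p = 0.0068) in Vanillin minus Sham. Gm53, between Hoxb9 and Hoxb13, was 0.31 and -0.81, both called. The strand that a probe reads is not given in the sources used here, so overlapping sense and antisense transcripts cannot be told apart.

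The counts of the lists that follow stand beside 36.5% of all probes higher and 23.2% lower in Sham minus Mock, and with lists of 6 to 20 genes nothing particular to a list is read from them. Among the proteins that act on or with Hox genes, the caudal factor Cdx2, which sets intestinal identity, rose and the cofactor Meis1 fell in Sham minus Mock. Cdx2 had intensities of 2663, 2825 and 2862 in Vanillin, 4229, 4099 and 4468 in Sham and 487, 453 and 478 in Mock. It rose by 3.13 (SE 0.055, adjusted p = 1.2e-10) in Sham minus Mock and fell by 0.61 (SE 0.055, adjusted p = 2.7e-05) in Vanillin minus Sham. The related Cdx1 rose by 0.28 (SE 0.08, adjusted p = 0.014) and Cdx4 was dim and not called (0.02) in Sham minus Mock. Of the 6 caudal and other ParaHox genes, 3 rose, 1 fell and 2 were not called in Sham minus Mock, and Pdx1, a regulator of the pancreas and duodenum, was another riser (0.83).

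Meis1 had intensities of 1035, 1140.2 and 1174 in Vanillin, 417, 379.9 and 387 in Sham and 6085, 5704 and 5832 in Mock. It fell by 3.84 (SE 0.063, adjusted p = 7.6e-11) in Sham minus Mock and rose by 1.46 (SE 0.063, adjusted p = 1.7e-07) in Vanillin minus Sham, which put the groups in the order of Hoxb2 (Mock, Vanillin, Sham from high to low). None of the 6 measured TALE cofactors rose in Sham minus Mock, and 4 fell, the others being Pbx3 (-0.61), Meis2 (-0.60) and Pbx2. Pbx2 read 26164, 26795 and 24150.4 in Vanillin, 11652, 10167 and 20052 in Sham and 21465, 23359 and 22624 in Mock, so 1 Sham array lay close to Mock, and its change was -0.75 (SE 0.21, adjusted p = 0.013) in Sham minus Mock. The summed squamous epithelium, hair follicle, adipocyte, skeletal muscle and smooth muscle markers had the same order of groups as Meis1, and their part in its change was not tested. Hoxd8, and Rxra and Pitx1 given below, had this order too, while Hoxa10, Hoxb9, Hoxd12 and Cdx2 had the reverse order. The part of these tissues in those changes was not tested either.

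Of 20 Polycomb genes 9 rose and 3 fell in Sham minus Mock (median 0.11). Ezh2, the methyltransferase of Polycomb complex PRC2, rose by 1.21 (SE 0.086, adjusted p = 2.1e-06), and its partner Suz12 by 0.86, Mtf2 by 0.73 and the PRC1 member Bmi1 by 0.70. Of 10 trithorax and H3K27 demethylase genes 5 rose and 1 fell (median 0.22), with the demethylase Kdm6a at 0.75 and Ash2l at 0.45. In Vanillin minus Sham the Polycomb list had 2 higher, 7 lower and 11 not called, and Ezh2 (-0.17) was not called. Over all probes 15.7% were higher and 32.2% lower there.

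Of 14 retinoic acid genes 4 rose and 6 fell in Sham minus Mock (median -0.13). Enzymes that make retinoic acid split. Aldh1a3 rose by 2.71 (SE 0.073, adjusted p = 2.3e-09) and Rdh10 by 1.76 (SE 0.048, adjusted p = 2.3e-09), whereas Aldh1a1 fell by 1.86 (SE 0.05, adjusted p = 2.2e-09). The receptor gene Rxra fell by 1.57 (SE 0.046, adjusted p = 4e-09) in Sham minus Mock and rose by 0.80 (SE 0.046, adjusted p = 1.4e-06) in Vanillin minus Sham.

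Of 14 regulators of hindgut and limb position 8 rose and 3 fell in Sham minus Mock (median 0.54). Pitx1, which specifies the hindlimb, had intensities of 448, 451 and 478 in Vanillin, 239, 256 and 230.0 in Sham and 3003, 3040.1 and 2952 in Mock. It fell by 3.55 (SE 0.053, adjusted p = 4.2e-11) in Sham minus Mock and rose by 0.88 (SE 0.053, adjusted p = 1.8e-06) in Vanillin minus Sham. Tbx4, another hindlimb gene, went the other way in Sham minus Mock, 1.28 (SE 0.067, adjusted p = 2.4e-07), as did Tbx3 (1.67), Sox2 (1.19) and Gata4 (0.60), a gene of the proximal intestine.

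**Figure D5:**
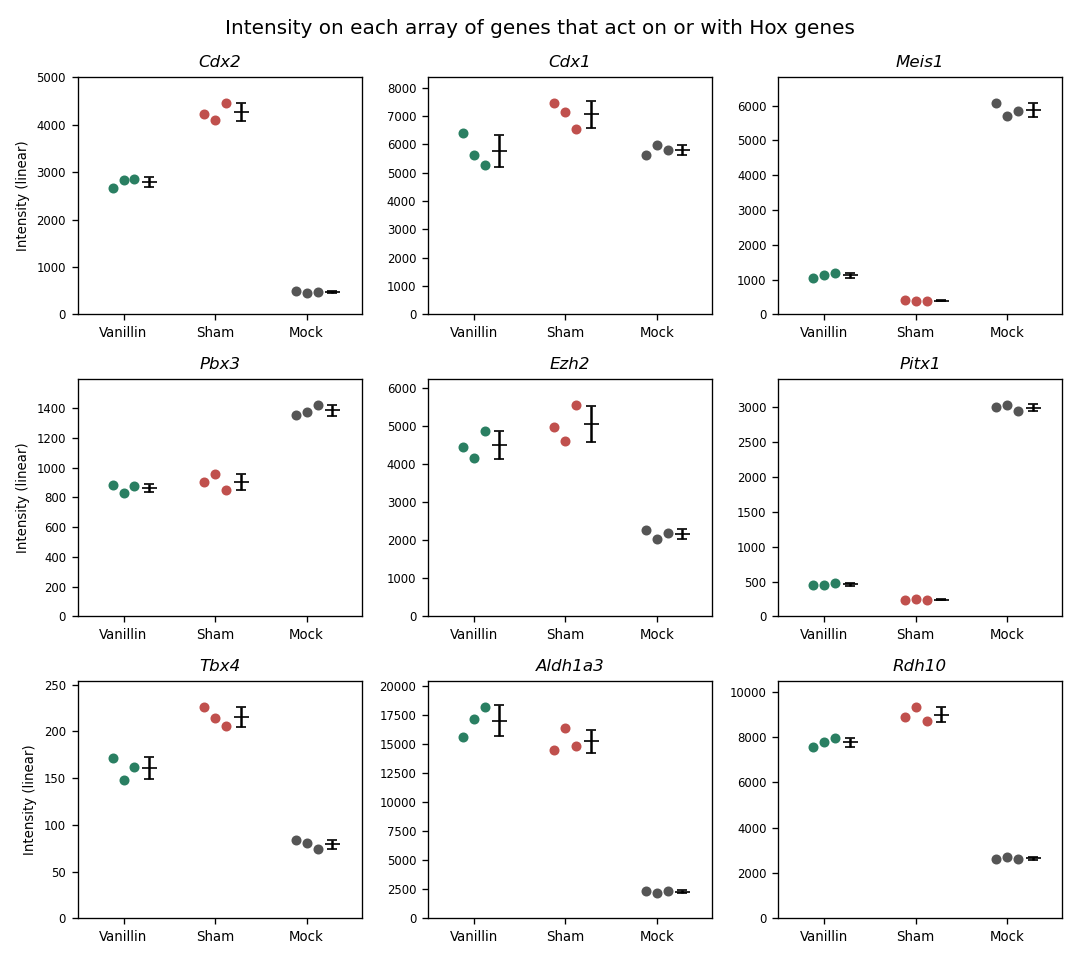
Intensity (linear scale, from 0) on each array of 9 genes of the lists above, with Vanillin, Sham and Mock from left to right. Points are arrays, with the mean and the SD (n = 3) beside them. Pitx1 and Tbx4 come from the list of regulators of hindgut and limb position, and the other genes act on or with Hox genes. Cdx2 is highest in Sham and lowest in Mock, while Meis1 and Pitx1 are highest in Mock and lowest in Sham.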

How the data were processed

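Colon RNA was measured on 9 one-colour Cy5 arrays. The deposited values are linear intensities, and 3 to 14 probes per array lie below 0. Sorted log2 values of the 9 arrays differ by at most 0.109, so the deposited intensities are on a common distribution. Limma is the tool named, per the submitters' processing notes, without version or role, and no header or label states other steps. Probes were named from the platform annotation and updated through RefSeq: 18213 by symbol, 2126 by synonym, and 38 kept their name.

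Values below 0 were set to 0, and log2(intensity + 16) was fitted with limma 3.58.1 (R 4.3.3), as 3 group means over 9 arrays (6 residual degrees of freedom), with no filter. P-values were adjusted by the Benjamini-Hochberg method over 26423 probes and called under 0.05. The number of arrays limits the precision (median residual SD 0.0895 on the log2 scale).

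The genes described in full are those where a probe was called with a change of at least 1 and a mean of at least 50 in a compared group. Of 13 such genes the 12 with the largest change were taken, by the brightest probe. Hoxa11, Hoxa13, Hoxb13 and Hoxd13 are also given array by array, chosen after their values were seen. Of each other list up to 4 genes with the smallest p in Sham minus Mock are named, with Cdx1, Cdx2, Cdx4, Gata4, Pitx1 and Tbx4. Members and lists were chosen with earlier results of these data known.

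Replicate numbers come from the labels, which do not say what they share. Deviations from the group means correlated at 0.169, 0.126 and 0.201 for same-numbered Vanillin and Sham arrays, so the replicate block was read as a pairing for that comparison, while the values were -0.104, -0.0162 and -0.117 for Sham and Mock and -0.288, -0.103 and -0.151 for Vanillin and Mock. Alternatives were pseudocounts of 1 and 64, leaving out the dimmest 30% of probes, repeated quantile normalization, the 6 compared arrays alone, array weights, an intensity trend, a replicate block, 1 probe per gene and leaving out each array. Every SE and p in the report comes from the fit without the block.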

Additional observations from a re-analysis of the deposited data

How the results depend on the processing

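The counts of called Hox probes stayed within 1.5 times the reported ones under every alternative run. Leaving out 1 array gave 22 to 25 calls in Vanillin minus Sham, 30 to 32 in Sham minus Mock, with 28 to 31 in Vanillin minus Mock, and of the 12 genes with the largest changes 11, 12 and 11 to 12 were called. Among all probes these fits called 40.9% to 48.3%, 54.0% to 61.4% and 44.2% to 51.7%, in the same order. Without the dimmest 30% of probes 34 Hox probes were left, with 19, 28 and 28 calls in the same order. Over all 18496 probes left, 59.2%, 71.3% and 61.7% were called. The Hox share in Vanillin minus Sham was thus below that of all probes under this setting. Of 2256 single-probe values under an alternative, 2203 kept their side of the threshold, 35 lost a call, 18 gained one and none changed sign while called. Calls of Hoxb5 in Vanillin minus Sham (without Sham replicate 1 or 2 or Vanillin replicate 3, adjusted p 0.069 to 0.081) and of Hoxd4 and Hoxd10 in Vanillin minus Mock (0.066 to 0.096 without single arrays) were lost; the cause was not tested.

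With the replicate block, 24 Hox probes were called in Vanillin minus Sham and 32 in Sham minus Mock. For Vanillin minus Mock the number was 31. Among all probes 46.4%, 58.7% and 49.3% were called with the block, in the same order. The block changed no call of a Hox probe in Vanillin minus Sham, the comparison in which the numbers were read as a pairing. In Vanillin minus Mock, Hoxd4 lost its call under the block (adjusted p = 0.054) and Hoxc12 gained one (0.05, rounded). With the block in a fit of the 6 compared arrays, chosen after seeing the data, 25, 31 and 29 were called, against 43.9%, 57.8% and 43.4% of all probes. Hoxd4 gained a call in Vanillin minus Sham there (adjusted p = 0.037, and 0.044 in the 6 arrays without the block), and Hoxc12 gained one in Vanillin minus Mock (0.048). Hoxd4 (0.11), Hoxd10 (0.11) and Hoxd11 (0.064) lost their calls in Vanillin minus Mock in that fit, and Hoxd11 (0.058) in Sham minus Mock.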
